A study of Mus musculus with 17 samples.

Results

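Clustered histone genes encode the linker histone H1 and the core histones H2A, H2B, H3 and H4, and lie in the gene clusters named Hist1, Hist2, Hist3 and Hist4. All protein-coding genes of the deposited expression table whose symbol starts with Hist1h, Hist2h, Hist3h or Hist4h were taken, which gave 58 of the 34140 genes in the table. The 2 other genes with such symbols are pseudogenes and were left out. The 58 genes comprised 6 of H1, 13 of H2A, 16 of H2B, 10 of H3 and 13 of H4. Of these, 51 lie in Hist1 on chromosome 13, 4 in Hist2 on chromosome 3, 2 in Hist3 on chromosome 11 and 1, Hist4h4, on chromosome 6 (GRCm38/mm10).

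Core histones form the particle that DNA wraps around, and H1 binds the DNA where it enters and leaves that particle. Most clustered histone genes are transcribed when cells replicate their DNA, under the coactivator Npat, and their mRNAs end in a short stem-loop held by the stem-loop binding protein Slbp in place of a poly(A) tail. Some of them also yield longer, polyadenylated mRNAs, which are known from cells that have stopped dividing. Smart-Seq2, the library method used here, starts complementary DNA synthesis from poly(A) tails, so mRNAs that end at the stem-loop are captured poorly and the levels below are not those of total histone mRNA.

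The samples were skin of C57/BL6j mice, labelled control at 0, 3, 6 and 9 days after injury, or given ionizing radiation (IR) and sampled at 3, 6 and 9 days. The 17 libraries fell into control day 0 (2 libraries), control day 3 (2), control day 6 (2), control day 9 (3), irradiated day 3 (3), irradiated day 6 (2) and irradiated day 9 (3). No irradiated library is labelled day 0, and the labels give no radiation dose, no kind of wound and no age or sex of the mice. Nor do they state whether libraries sharing a group were made from different mice, so p-values measure the spread between these samples, which may be technical. The study looked for molecules that act in the healing of irradiated wounds.

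The library sizes recovered from the deposited values were 25440773 to 30797409 fragments (median 29278323). Mitochondrially encoded genes took 31.8% and 21.7% of the summed FPKM in the day 0 libraries and 8.33% to 12.6% in the others. FPKM is a fragment number divided by the length of the gene and the size of the library. The summed FPKM of the skeletal muscle markers Acta1, Ckm and Myh4 was 9778 to 11494 at day 0 and 616 to 2489 in all other libraries, so day 0 stood apart. Keratinocyte and fibroblast markers were present in every library.

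Few of the 58 genes were abundant. The summed FPKM of all 58 came to 0.0227% to 0.0572% of that of protein-coding genes, over 2726 to 8361 fragments per library. Hist1h1c (H1) and Hist1h2bc (H2B) together carried 65.1% to 80.3% of the histone FPKM, and with Hist1h4i and Hist1h4h (both H4) 76.9% to 91.0%. With a minimum of 1 FPKM in at least 2 libraries, 17 genes could be tested and 41 could not. In 40 of those 41 every library was under 1 FPKM. Their summed level was 4.40 to 10.3 FPKM per library, from 153 to 289 fragments, so single genes among them mostly rested on few fragments. By family, 2 H1, 1 H2A, 5 H2B, 5 H3 and 4 H4 genes were tested.

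Hist1h1t, the linker histone of the testis, served as a gene that skin should lack. It had 11 fragments over all libraries, 5 of them in irradiated day 3 replicate 2, and was at 0 in most libraries. Hist1h1b (mean FPKM 0.125), Hist1h2ae (0.317) and Hist1h2ai (0.192), which rank among the 3 highest genes of their families, also stayed below the filter.

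The stem-loop was looked for in the annotated transcripts (GENCODE M21) as a stem of 6 bases, a loop of 4 and the matching stem, after the stop codon. It was found in 42 of the 58 genes, and its pattern occurred anywhere in the transcripts of 26 of 21843 other protein-coding genes (0.12%). Of the remaining 16 genes, 11 have an annotated transcript that ends at most 2 bases after the stop codon. The other 5 have a longer transcript without a match, among them Hist1h2bc (mean FPKM 37.2) and Hist2h2be (1.94). The 4 forms of the stem-loop carried by the tested genes are printed to show how little those differ, with the loop in capitals.
Hist1h1c, Hist1h1e, Hist1h2bg, Hist1h2bj, Hist1h3d, Hist2h3c2, Hist3h2a, Hist3h2ba: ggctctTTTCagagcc
Hist1h4h, Hist1h4n: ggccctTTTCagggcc
Hist1h4i: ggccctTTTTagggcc
Hist1h3c: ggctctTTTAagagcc
The first form occurs in 22 of the genes, the second in 7, the fourth in 6 and the third in 2, the other being Hist2h4. Other forms occur in 5 genes that were not tested, Hist1h3g among them.

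What follows the stem-loop differed far more. The annotated transcript runs on for 840 bases after it in Hist1h1c, 1153 in Hist1h1e, 752 in Hist1h3d, 330 in Hist1h4i, 377 in Hist2h3c2 and 1643 in Hist3h2a. In Hist1h4h it runs on for 46 bases, in Hist1h3c for 74 and in Hist1h2bj for 23. Hist1h2bc has 742 bases after its stop codon and Hist2h2be 2192. In all, 24 of the 58 genes have at least 200 annotated bases after the stop codon, and 10 of the 24 were tested, against 7 of the 34 with fewer. The median of the genes' mean FPKM was 0.412 in the longer group and 0.164 in the shorter. The division at 200 bases was chosen after values had been seen, so it is a description only.

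**Figure D1:**
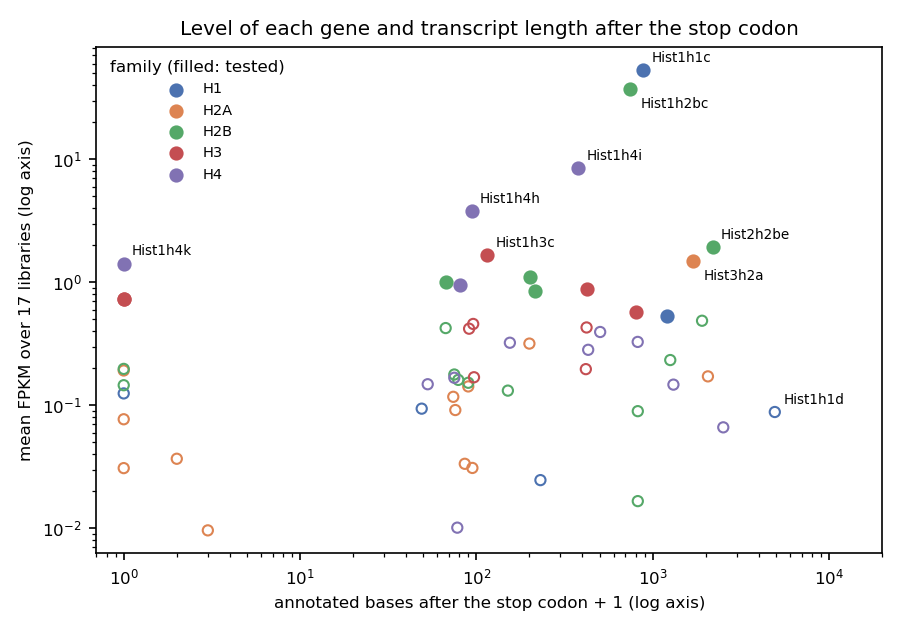
Mean FPKM of each of the 58 genes over 17 libraries against the annotated bases after the stop codon plus 1 (both axes logarithmic), coloured by family, with tested genes filled. The 3 most abundant genes, Hist1h1c, Hist1h2bc and Hist1h4i, have 376 to 880 bases there, and the next, Hist1h4h, has 93. Hist1h1d, with 4931 bases, is among the low genes.

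Promoters were read from RefSeq (GRCm38.p6) as 250 bases before and 50 after the start, for the 53 genes with an entry. The TATA box letters TATAAA, on either strand and at any position, occurred in 31 of the 53 (58.5%) against 15.6% of 26972 other genes. CCAAT occurred in 44 (83.0%) against 41.0%. CCAAT was in all 6 H1, 13 H2A, 14 H2B and 8 H3 windows and in 3 of 12 H4 windows. The octamer ATTTGCAT was in 11 windows (20.8% against 1.9%), 6 of H2A and 5 of H2B. The 100 bases before the start are printed for 4 genes whose levels are given below, since all 4 were higher in irradiated wounds averaged over days, and no motif occurs in all 4 stretches. Capitals mark matches to the motifs.
Hist1h1c, chr13:23738707-23738806, plus strand: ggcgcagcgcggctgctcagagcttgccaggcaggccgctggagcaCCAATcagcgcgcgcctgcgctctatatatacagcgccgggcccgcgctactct
Hist1h2bg, chr13:23571300-23571399, plus strand: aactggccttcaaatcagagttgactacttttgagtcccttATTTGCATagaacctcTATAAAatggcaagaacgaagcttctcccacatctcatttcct
Hist1h4h, chr13:23530944-23531043, plus strand: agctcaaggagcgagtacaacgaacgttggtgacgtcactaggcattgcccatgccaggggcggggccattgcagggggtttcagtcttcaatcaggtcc
Hist1h4i, chr13:22041363-22041462, minus strand: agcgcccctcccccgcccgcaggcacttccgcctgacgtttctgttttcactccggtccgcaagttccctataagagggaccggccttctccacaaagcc
Hist1h1c has a CCAAT match and Hist1h2bg an octamer and a TATAAA match. Hist1h4h has no match in its whole window, and Hist1h4i has a TATAAA match outside the bases shown. No match says only that these letters are not in the window. A match at any position was counted, so it need not be a working TATA box. Similar letters, such as tatatata in Hist1h1c and tataag in Hist1h4i, were not searched and are not marked.

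The summed level of clustered histone mRNA was highest at day 0 and lower in all control wounds. It was higher in irradiated than in control wounds at days 6 and 9 but not at day 3. This sum is mostly that of the 4 most abundant genes. The sums of H2A, of H3 and of the genes other than these 4 were not highest at day 0. The summed level of the 58 genes was 195.7 ± 15.3 FPKM (SD, n = 2) at day 0, 104.2 ± 15.8 (n = 2) in control day 3, 95.8 ± 3.32 (n = 2) in control day 6 and 86.5 ± 8.84 (n = 3) in control day 9. In irradiated wounds it was 101.0 ± 5.92 (n = 3) at day 3, 165.1 ± 27.4 (n = 2) at day 6 and 140.9 ± 2.96 (n = 3) at day 9. The lowest irradiated library of days 6 and 9, at 137.5 FPKM, lay above the highest control wound library of any day, at 115.3. In tissue RNA, fewer cells of a type and less RNA per cell cannot be told apart.

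**Figure D2:**
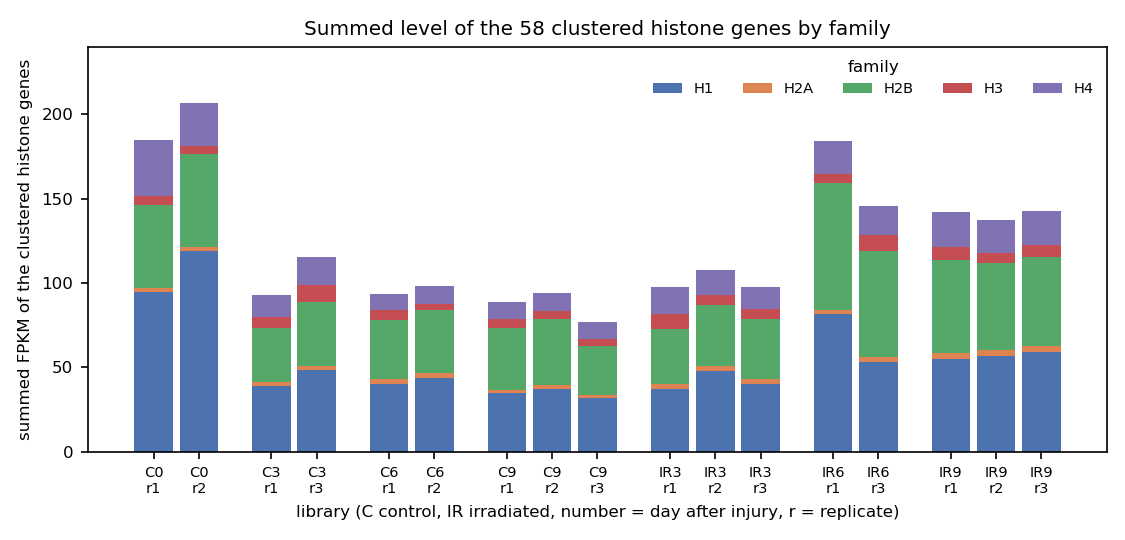
Summed FPKM of the 58 clustered histone genes in each of 17 libraries, stacked by family (C control, IR irradiated, the number is the day). The day 0 libraries stand at 184.9 and 206.6, control wounds at 76.7 to 115.3, irradiated day 3 at 97.5 to 107.9 and irradiated days 6 and 9 at 137.5 to 184.5, with most of the height from H1 and H2B.

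By family, H1 had a mean summed level of 107.0 FPKM at day 0, 34.6 in control day 9 and 57.0 in irradiated day 9, and H4 of 29.4, 10.2 and 20.2 in the same groups. H2B stood at 51.9 at day 0, 34.7 in control day 9 and 53.4 in irradiated day 9. H2A, which has no abundant member, stood at 2.27 and 2.65 FPKM at day 0, at 1.90 to 2.41 in control day 9 and at 3.26 to 3.62 in irradiated day 9. H3 stood at 4.74 and 5.30 at day 0, at 4.02 to 5.39 in control day 9 and at 5.99 to 7.62 in irradiated day 9. In both families the arms did not overlap at day 9. The 54 genes other than the 4 most abundant summed to 17.4 to 18.6 FPKM at day 0 and 14.1 to 24.7 in control wounds. Day 0 and control wounds therefore overlapped. In every irradiated library the sum of these 54 genes exceeded both day 0 values. The lowest such library was irradiated day 3 replicate 2 (20.4 FPKM), the highest irradiated day 9 replicate 1 (28.2 FPKM). These sums are descriptions and were not tested.

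Among the genes, irradiated and control wounds were compared first at day 3. None of the 17 tested genes passed (limma, adjusted p under 0.05, against 1.56% of all 15271 tested genes higher and 0.288% lower), and 1 of them, and 1741 of all genes, had an unadjusted p under 0.05. The median log2 fold change of the 17 was -0.06, and that of all genes -0.04. Hist1h1c stood at 38.5 and 47.5 FPKM in control day 3 and at 36.7, 47.2 and 39.4 in irradiated day 3. Hist1h2bc stood at 25.3 and 29.5 in control and at 26.8, 30.2 and 27.9 in irradiated skin. Both genes overlapped between the arms. In 2 genes, Hist3h2a and Hist3h2ba, every irradiated library lay above every control library, as in 15.9% of all genes, and in 1, Hist1h1e, every irradiated library lay below, as in 25.1%.

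By day 6, 2 of the 17 genes were higher in irradiated wounds and none was lower, against 0.151% and 0.124% of all genes. Hist1h2bc, an H2B gene (ENSMUSG00000018102, chr13:23684199-23692908, plus strand), stood at 28.5 and 31.8 FPKM in control and at 67.3 and 55.5 in irradiated libraries. Its log2 fold change of FPKM + 1 was 0.998 (SE 0.14, adjusted p 0.0127). The H3 gene Hist1h3d, at 0.20 and 0.22 FPKM in control and 1.30 and 1.13 in irradiated skin, had a change of 0.87 (SE 0.15, adjusted p 0.0444). Neither gene overlapped between the arms. Hist1h3d reached the filter of 1 FPKM only in irradiated libraries, and 17 of 25 alternative analyses ended its call.

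Other changes at day 6 did not pass. Hist1h4h, which encodes H4, stood at 0.76 and 2.34 FPKM in control and 5.33 and 3.91 in irradiated libraries (1.20, SE 0.32, adjusted p 0.146). Hist1h4i, also H4, stood at 5.16 and 4.86 against 9.75 and 8.53 (0.75, adjusted p 0.0881). Hist1h1c stood at 39.0 and 42.7 against 80.1 and 52.3 (0.65, adjusted p 0.162). In 11 of the 17 genes both irradiated libraries lay above both control libraries, as in 19.8% of all genes, and in none did both lie below, as in 16% of all genes. The median change was 0.38, and 0.02 over all genes. Hist1h2bg, Hist1h3d and Hist1h4n, all among the 11, entered the test only through irradiated libraries, so nothing is read from this count and median. With 2 libraries in each arm the count of passing genes rested on single libraries: it was 0 without control day 6 replicate 1 or irradiated day 6 replicate 1, 4 without irradiated day 6 replicate 3, and 0 when these 4 libraries were fitted alone.

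Day 9 gave the most calls. Of the 17 genes, 6 were higher in irradiated wounds and none was lower, against 2.33% and 3.05% of all genes. Hist1h2bg and Hist1h4n, 2 of the 6, entered the test only through irradiated libraries, where they are high, so nothing is read from the count with them; of the other genes 4 passed. The 6 came from H1 (Hist1h1c), H2B (Hist1h2bc, Hist1h2bg) and H4 (Hist1h4i, Hist1h4k, Hist1h4n). The tested H3 genes and the tested H2A gene did not pass. Every irradiated library lay above every control library in 12 of the 17, as in 16.8% of all genes, and below in none, as in 17.2%. Hist1h2bg, Hist1h3d and Hist1h4n, which entered the test only through irradiated libraries, are among the 12, so nothing is read from this count either.

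The linker histone gene Hist1h1c (ENSMUSG00000036181, chr13:23738808-23740367, plus strand) stood at 34.3, 37.0 and 31.4 FPKM in control day 9 and at 54.3, 56.1 and 57.96 in irradiated day 9. It rose by 0.70 (SE 0.15, adjusted p 0.0265), and the arms did not overlap. Without any 1 of the 6 day 9 libraries the change was 0.64 to 0.76 but the adjusted p was 0.0513 to 0.109. Hist1h2bc stood at 29.3, 31.5 and 24.3 FPKM in control and at 47.1, 42.2 and 44.2 in irradiated skin. It rose by 0.64 (SE 0.11, adjusted p 0.0111, and 0.052 without irradiated day 9 replicate 3), with no overlap between the arms.

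Hist1h2bg, a low H2B gene (ENSMUSG00000058385, chr13:23571396-23572013, plus strand), stood at 0.63, 0.99 and 0.82 FPKM in control day 9 and at 2.60, 2.18 and 1.75 in irradiated day 9. Its change of 0.81 (SE 0.13, adjusted p 0.00899) passed under each of 25 alternative analyses, with adjusted p up to 0.0421. Only irradiated day 6 and day 9 libraries brought it past the filter. Hist1h4i (ENSMUSG00000060639, chr13:22040636-22041362, minus strand) stood at 5.59, 5.40 and 5.96 FPKM in control and at 10.1, 9.07 and 9.43 in irradiated skin. It rose by 0.66 (SE 0.13, adjusted p 0.0151). Leaving out control day 9 replicate 1, control day 9 replicate 2 or irradiated day 9 replicate 3 gave an adjusted p of 0.055, 0.0722 or 0.067.

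The other H4 genes that passed at day 9 are less certain as genes. Hist1h4k (1.03, SE 0.25, adjusted p 0.0384) stood at 0.52, 0.98 and 1.27 FPKM against 2.57, 3.39 and 2.71, and Hist1h4n (0.73, SE 0.19, adjusted p 0.0454) at 0.60, 0.71 and 0.59 against 2.89, 1.27 and 1.26. Only 35.7% of the 100-base windows of Hist1h4k and 19.3% of those of Hist1h4n occur in no other annotated transcript, and Hist1h4n has the same coding sequence as Hist1h4m, so fragments could have been assigned to the wrong copy. Hist1h4n reached 1 FPKM only in irradiated libraries, and with no filter its adjusted p was 0.0846. Of 25 alternative analyses, 12 ended the call of Hist1h4k and 17 that of Hist1h4n. Hist1h4h, at 1.04, 2.09 and 1.08 FPKM against 2.72, 2.87 and 3.95, did not overlap between the arms but missed the threshold (0.82, SE 0.26, adjusted p 0.0897).

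The day 9 count also rested on its libraries. It was 1 without irradiated day 9 replicate 3, 2 without control day 9 replicate 1 or replicate 2, and 3 without irradiated day 9 replicate 1 or replicate 2. Over all 58 genes, with no filter, 5 passed at day 9, and the median change was 0.11, against 0.38 over the 17 tested genes and 0.02 over all genes tested. Some of the 17 entered the test only through irradiated or day 0 libraries, so counts and medians over them describe these genes and not the 58.

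**Figure D3:**
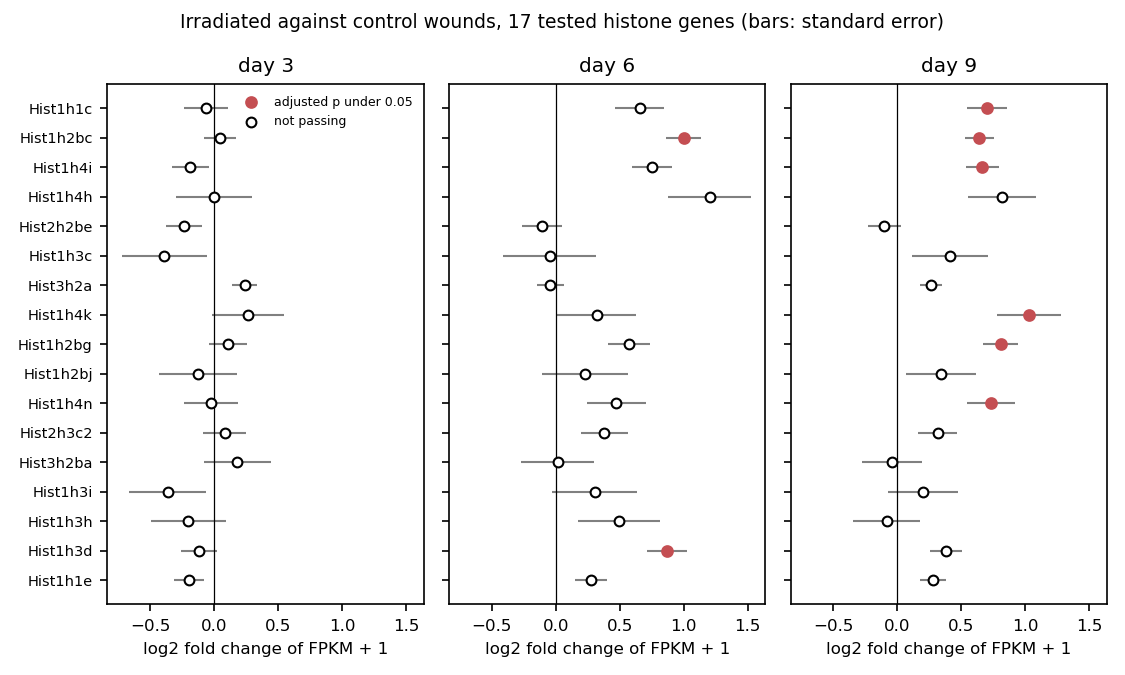
Log2 fold change of FPKM + 1 (bars are standard errors) in irradiated against control skin at days 3, 6 and 9 for the 17 tested genes, ordered by mean level, with genes that passed filled. At day 3 the values scatter around 0, while at days 6 and 9 most lie to the right of 0, Hist2h2be being to the left at each day. Hist1h2bg, Hist1h3d and Hist1h4n entered the test only through irradiated libraries, so nothing is read from how many genes lie to the right.

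Averaged over days 3, 6 and 9, 6 of the 17 genes were higher in irradiated wounds and none was lower, against 4.36% and 2.57% of all genes. Hist1h2bg and Hist1h3d, 2 of these 6, entered the test only through irradiated libraries, so only the other 4 bear on the comparison. The largest change was in Hist1h4h (0.67, SE 0.17, adjusted p 0.0342), whose call 13 of 26 alternatives ended. Hist1h2bc (0.56, adjusted p 0.000964), Hist1h2bg (0.50, adjusted p 0.00472) and Hist1h4i (0.41, adjusted p 0.0108) passed under every alternative run. Hist1h1c rose by 0.43 (adjusted p 0.0233) and Hist1h3d by 0.38 (adjusted p 0.0158). Without control day 3 replicate 1, 3 genes passed, and Hist1h1c (adjusted p 0.0849) and Hist1h3d (0.0621) did not.

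Whether irradiation acted differently on different days could not be shown gene by gene. An F test of the differences between the days called none of the 17 histone genes and 2 of all genes (0.0131%), with 7 of the 17 and 2337 of all 15271 genes under an unadjusted p of 0.05. The effect at day 9 minus that at day 3 was called in none of the 17 and in 0% of all genes, with 7 of the 17 and 2211 of 15271 genes under an unadjusted p of 0.05. Hist1h2bg and Hist1h3d, in both sets of 7, and Hist1h4n, in the second, entered the test only through irradiated libraries. Hist1h1e, also in both, entered only through day 0, so nothing is read from these counts of unadjusted p. Within irradiated wounds, 2 of the 17 genes were higher at day 9 than at day 3, against 0.38% of all genes, and none was lower, against 0.583%. Hist1h2bg rose by 0.85 (SE 0.13, adjusted p 0.0171), from 0.58, 0.77 and 0.94 FPKM to 2.60, 2.18 and 1.75. Hist1h2bc rose by 0.64 (SE 0.11, adjusted p 0.0263), from 26.8, 30.2 and 27.9 FPKM to 47.1, 42.2 and 44.2. Neither overlapped between the days, but neither call remained without irradiated day 3 replicate 1, irradiated day 3 replicate 2 or irradiated day 9 replicate 2, and only that of Hist1h2bg remained without any 1 of the other 3 libraries. Hist1h2bg entered this test only through irradiated day 6 and day 9 libraries.

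**Figure D4:**
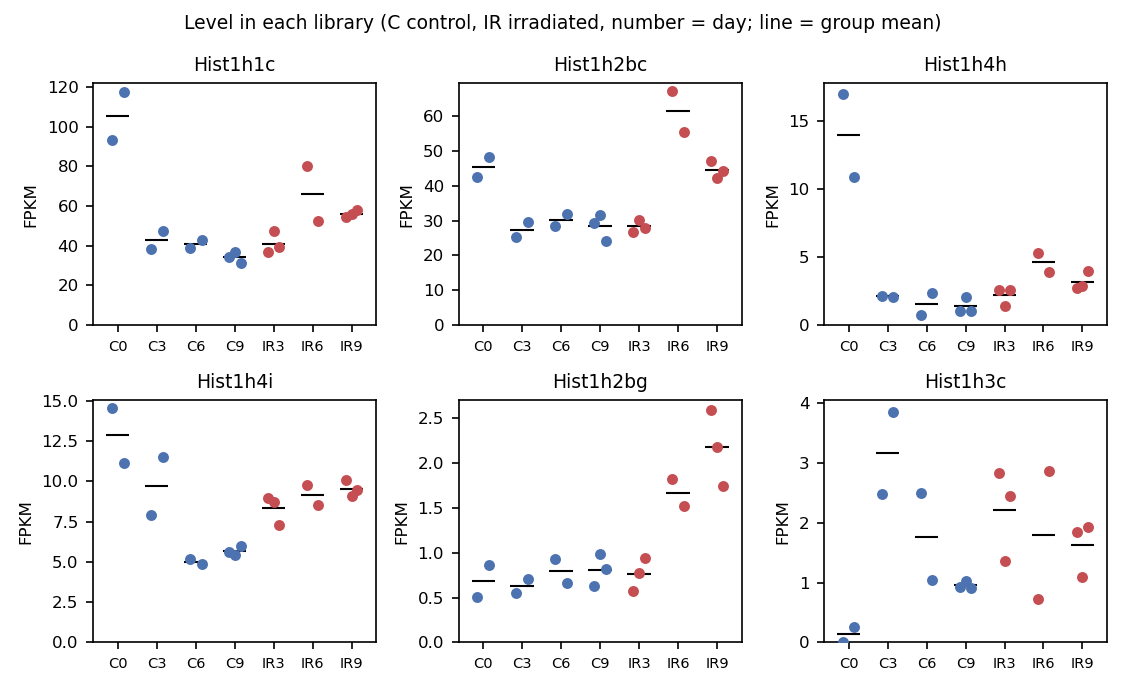
FPKM of 6 histone genes in each library by group (blue control, red irradiated, line at the group mean, each panel from 0). Hist1h1c, Hist1h2bc, Hist1h4h and Hist1h4i are lower in control day 9 than at day 0 and higher in irradiated than in control day 9, Hist1h2bg is high in irradiated days 6 and 9 only, and Hist1h3c is near 0 at day 0.

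Against day 0, control wounds had less mRNA of the abundant histone genes and more of a few low ones. At day 3 after injury 6 of the 17 genes were lower and 2 higher (12.4% and 25.8% of all genes), at day 6 the counts were 8 and 1 (14.2% and 21.1%), and at day 9 they were 9 and 1 (18% and 30.4%). The 3 comparisons share the day 0 libraries. Hist1h1e, lower on each day, entered the test only through day 0, and the genes that were higher entered only through wound libraries. Counts and medians over the 17 therefore describe the tested genes only. The median change of the 17 was -0.34, -0.49 and -0.39 at days 3, 6 and 9, whereas the median of all genes was 0.16, 0.11 and 0.15. With median-of-ratios scaling the median of all genes was 0.00, 0.01 and 0.04 and that of the 17 was -0.47, -0.55 and -0.47, so the direction of these medians did not depend on this scaling. All 3 skeletal muscle markers were lower in control wounds on each day, and the part of muscle in these changes was not tested.

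Hist1h4h (ENSMUSG00000060981, chr13:23531050-23531519, plus strand) changed most. It stood at 16.98 and 10.9 FPKM at day 0, at 2.17 and 2.08 in control day 3, at 0.76 and 2.34 in control day 6, and at 1.04, 2.09 and 1.08 in control day 9. Its log2 fold change was -2.23 at day 3 (SE 0.32, adjusted p 0.0003), -2.59 at day 6 (adjusted p 0.000144) and -2.64 at day 9 (adjusted p 2.99e-05). The day 0 libraries lay above every wound library, irradiated ones included, which reached 5.33 FPKM. Hist1h1c stood at 93.6 and 118 FPKM at day 0 and at 31.4 to 47.5 in control wounds, and fell by 1.27, 1.34 and 1.59 at days 3, 6 and 9 (adjusted p 0.000356, 0.000285 and 2.68e-05). Hist1h2bc stood at 42.5 and 48.2 FPKM at day 0 and at 24.3 to 31.8 in control wounds, and fell by 0.71, 0.57 and 0.66 (adjusted p 0.00184, 0.00704 and 0.00104).

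Other H1, H3 and H4 genes followed. Hist1h4i, at 14.5 and 11.2 FPKM at day 0, fell by 1.19 at day 6 (adjusted p 0.000189) and by 1.05 at day 9 (adjusted p 0.00011), while at day 3 its libraries at 7.91 and 11.5 overlapped those of day 0 (-0.38, adjusted p 0.0727). Hist2h3c2, an H3 gene of the Hist2 cluster, stood at 2.43 and 1.74 FPKM at day 0 and at 0.33 to 0.93 in control wounds, and fell by 0.94 at day 3 and 0.98 at day 9, with an adjusted p of 0.00148 at day 6. Only 38.4% of its 100-base windows occur in no other annotated transcript, so it too is less certain as a gene. Hist1h1e, a linker histone gene, stood at 1.16 and 1.01 FPKM at day 0 and at 0.18 to 0.57 in control wounds, and fell by 0.47, 0.45 and 0.77. It passed the filter through the day 0 libraries alone, so a fall was bound to appear, and 25.7% of its exon bases overlap other genes, Hist1h2be among them. Hist1h3d fell by 0.62 at day 6 and 0.47 at day 9.

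Of the H2A and H2B genes in the Hist2 and Hist3 clusters, 3 were tested. Hist2h2be (H2B, chromosome 3) stood at 2.63 and 3.29 FPKM at day 0 and at 1.35 to 2.59 in all wound libraries. It fell by 0.49 at day 6 (adjusted p 0.0275) and by 0.46 at day 9 (adjusted p 0.0179). Its changes with irradiation were -0.23, -0.11 and -0.10 at days 3, 6 and 9 (adjusted p 0.608, 0.781 and 0.681). Hist3h2a, the only tested H2A gene, stood at 1.85 and 1.72 FPKM at day 0 and at 1.05 to 1.58 in control wounds, and fell by 0.34 at day 3 and 0.33 at day 9. Of its exon bases 33.0% overlap other genes, Trim17 among them. Hist3h2ba (H2B) did not pass, with changes of -0.48, -0.53 and 0.20 at days 3, 6 and 9 (adjusted p 0.209, 0.173 and 0.554).

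Of the 17 tested genes, 3 rose after injury, and all 3 were low. None of the 3 reached 1 FPKM at day 0. They entered the test only through wound libraries, so the filter itself favoured a rise. Hist1h3c (H3, ENSMUSG00000069310, chr13:23744973-23745602, minus strand) stood at 0.00 and 0.27 FPKM at day 0, at 2.49 and 3.85 in control day 3, at 2.50 and 1.03 in control day 6 and at 0.93, 1.02 and 0.92 in control day 9. It rose by 1.87 at day 3 (SE 0.36, adjusted p 0.00183) and by 1.25 at day 6 (adjusted p 0.0192), and every wound library lay above both day 0 libraries. Hist1h2bj (H2B) stood at 0.17 and 0.07 FPKM at day 0 and at 1.40 and 1.82 in control day 3, and rose by 1.22 (SE 0.34, adjusted p 0.0135). Hist1h3h (H3) rose by 0.77 at day 9 (adjusted p 0.0471), but 8.0% of its 100-base windows are its own and 16 of 25 alternatives ended the call. None of these 3 has 200 annotated bases after the stop codon, and the transcript of Hist1h3h is annotated only to its stop codon. By contrast, 5 of the 6 genes lower at day 3, 7 of the 8 lower at day 6 and 8 of the 9 lower at day 9 do. Hist1h4h was the exception each time. Of all 17 tested genes 10 have 200 bases there, and the division was chosen after values had been seen.

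The genes too low for the main test can only be described as a sum. The 41 genes below the filter summed to 4.40 and 5.04 FPKM at day 0, 7.15 and 7.96 in control day 3, 7.74 and 6.47 in control day 6, and 6.90, 5.58 and 4.84 in control day 9. In irradiated skin they summed to 8.29, 7.98 and 8.10 at day 3, 7.98 and 7.57 at day 6, and 9.45, 10.3 and 8.98 at day 9. The day 0 libraries lay below all libraries of control day 3 and control day 6 and overlapped control day 9, and the irradiated day 9 libraries were the 3 highest. A second test on the recovered fragments, limma-voom for genes with 10 fragments in at least 2 libraries, reached 31 of the 58 genes. The genes it added are named after their values were seen. It called Hist1h2be (H2B, 1906 bases after the stop codon) lower in control wounds than at day 0, at days 3, 6 and 9 (-1.56, -1.78 and -1.69, adjusted p 0.00322, 0.00208 and 0.000645). Hist1h1d (H1, 4931 bases) was lower at days 6 and 9 (-1.45 and -1.33) and higher in irradiated wounds averaged over days (0.90, adjusted p 0.0425). Hist1h3g (H3, 95 bases) was higher at days 3 and 9 (2.33 and 1.91, adjusted p 0.023 and 0.0376), Hist1h4c (H4, 503 bases) at day 3 (1.97, adjusted p 0.0294) and Hist1h4d (H4, 822 bases) at day 9 (1.72, adjusted p 0.0321). Genes with more than 200 annotated bases after the stop codon were therefore among those that rose.

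Between days 3 and 9 of control wounds 2 of the 17 genes were lower and none was higher, against 10.2% and 8.02% of all genes. Hist1h4i fell by 0.67 (SE 0.14, adjusted p 0.00911), from 7.91 and 11.5 FPKM to 5.59, 5.40 and 5.96, and Hist1h3c by 1.07 (SE 0.33, adjusted p 0.0434), from 2.49 and 3.85 to 0.93, 1.02 and 0.92. Neither overlapped between the days. Both calls depended on control day 3 replicate 3, without which Hist1h4i had an adjusted p of 0.147 and Hist1h3c of 0.303, and leaving out any 1 of control day 3 replicate 1, the control day 9 libraries, irradiated day 3 replicates 1 and 3 and the irradiated day 9 libraries ended the call of Hist1h3c and left that of Hist1h4i.

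Cell cycle genes were higher in control wounds than at day 0, where the abundant histone genes were lower. Of 30 DNA replication genes 29 were tested, and 29, 27 and 29 of them rose against day 0 at days 3, 6 and 9, with medians of 1.16, 0.76 and 0.88. All 20 mitosis genes rose on each day, with medians of 1.63, 1.02 and 1.14. Pcna, the sliding clamp of DNA polymerase, went from 27.2 and 28.95 FPKM at day 0 to 62.5 and 65.8 in control day 3 (1.16, adjusted p 2.83e-05), and the proliferation marker Mki67 from 3.75 and 6.56 to 22.3 and 22.4 (1.96, adjusted p 6.38e-05). These are comparisons with the same day 0 libraries, whose muscle marker level was given above.

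With irradiation no gene of either list passed as higher. Of the 29 DNA replication genes only Tyms was lower at day 3 (-0.44, adjusted p 0.0255), none passed at days 6 and 9, and Cdk2 was lower averaged over days (-0.23, adjusted p 0.0399). Medians were -0.32, 0.01 and 0.16 at days 3, 6 and 9, and 19, 1 and 6 of the 29 had an unadjusted p under 0.05 (limma). For the effect at day 9 minus that at day 3, 22 of the 29 did, with a median of 0.49, and none passed. The summed FPKM of the list at day 3 was 225.7 to 263.4 in irradiated and 303.0 to 314.1 in control wounds. At day 9 it was 249.2 to 266.3 against 204.6 to 244.4, and at day 6 the arms overlapped. Of the 20 mitosis genes only Nusap1 was lower at day 3 (-0.71, adjusted p 0.0253) and averaged over days, none passed at days 6 and 9, and medians were -0.55, -0.22 and 0.15. Mki67, at 19.8, 17.9 and 13.5 FPKM in control day 9 and 16.96, 19.6 and 18.6 in irradiated day 9, had a change of 0.11 (adjusted p 0.743), and the arms overlapped.

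**Figure D5:**
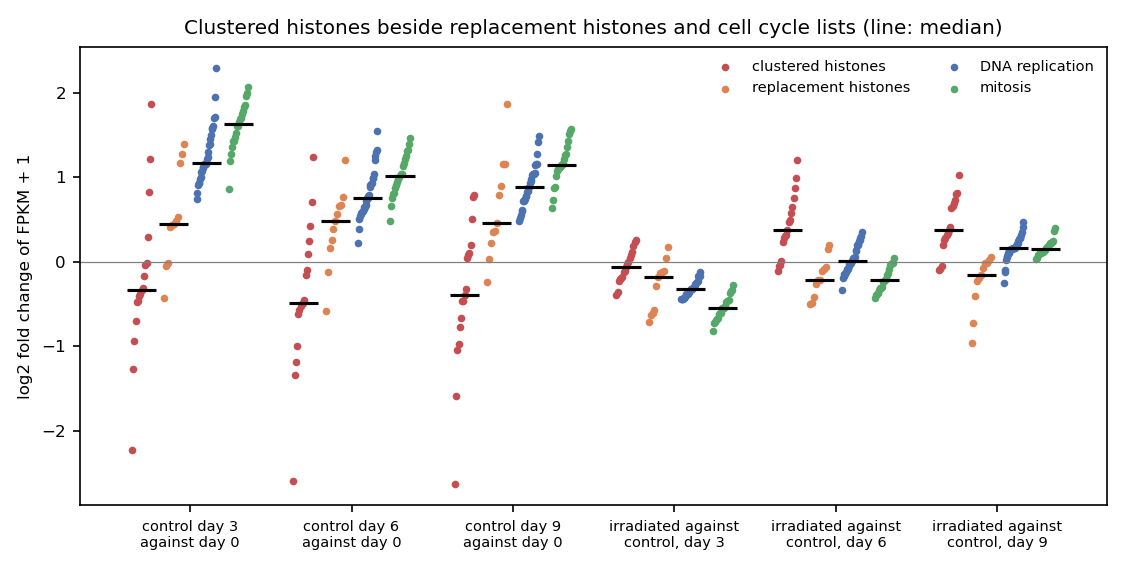
Log2 fold change of FPKM + 1 of each tested gene in 4 gene lists (line at the median) for control wounds against day 0 and for irradiated against control wounds by day. In control wounds the DNA replication and mitosis genes lie above 0 and the median of the 17 clustered histone genes lies below. For irradiated against control day 6 the clustered histone median is 0.38 and those of the other lists are 0.01 or less. Hist1h2bg, Hist1h3d and Hist1h4n entered the test only through irradiated libraries and Hist1h1e only through day 0, so the histone medians describe the tested genes only.

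The replacement histone genes, which lie outside the clusters and mostly have ordinary polyadenylated mRNAs, though H2afx is known to yield stem-loop mRNA too, were lower in irradiated skin where they changed. Averaged over days 5 of 11 were lower and none was higher: Cenpa, the histone H3 of the centromere (-0.33, adjusted p 0.0134), the linker histones H1f0 (-0.33, adjusted p 0.0192) and H1fx (-0.43, adjusted p 0.0226), and the H2A variants H2afv (-0.36, adjusted p 0.00631) and H2afz (-0.38, adjusted p 0.00532). At day 3, 3 of 11 were lower, at day 6 none, and at day 9 2 were lower, H1fx and H2afv. H2afz stood at 169.1 and 176.6 FPKM in control day 3 and at 114.8, 109.8 and 123.8 in irradiated day 3 (-0.57, adjusted p 0.0254), with no overlap. H2afx, whose protein is phosphorylated at DNA breaks, stood at 20.4 and 21.2 against 14.9, 12.2 and 12.3 FPKM at day 3 (-0.63, adjusted p 0.0766), and the H3 variant gene H3f3b showed a change of 0.17 (adjusted p 0.653). Against day 0, 7, 6 and 8 of the 11 were higher in control wounds at days 3, 6 and 9 and 1, 1 and 0 lower.

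Genes that make and process histone mRNA rose in part after injury, and 1 of them passed with irradiation. Of 13 tested, 10, 7 and 9 rose against day 0 at days 3, 6 and 9. Slbp, which binds the stem-loop, stood at 2.37 and 2.77 FPKM at day 0, at 5.48 and 5.95 in control day 3 and at 4.49, 4.16 and 4.54 in irradiated day 3. It rose by 0.91 after injury (adjusted p 2.74e-05) and was lower by 0.32 in irradiated than in control day 3 (-0.32, adjusted p 0.0389), without overlap in either comparison. It was the only gene of this list to pass in an irradiation comparison, at day 3 and averaged over days (-0.16, adjusted p 0.0278). Npat changed by 0.58 against day 0 at day 3 (adjusted p 0.00194) and by -0.03 with irradiation (adjusted p 0.951).

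Among 8 genes of histone mRNA decay, Dcp2, which removes the cap, was higher in irradiated skin at day 3 and averaged over days, Exosc10 was higher averaged over days, and 4, 2 and 5 were higher in control wounds than at day 0 on days 3, 6 and 9, when 25.8%, 21.1% and 30.4% of all genes were. Of 17 histone chaperones, which carry histones to DNA, 9, 9 and 11 were higher in control wounds, and Daxx was higher in irradiated skin at day 3, at 44.1, 37.3 and 29.6 FPKM against 11.8 and 10.1 (1.66, adjusted p 0.00175), while Ubn1 was lower averaged over days.

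Markers of several cell types also moved with irradiation, and their part in the histone changes was not tested. At day 9, when 6 histone genes were higher, 2 of 3 mast cell markers (Cma1, Mcpt4) and 1 of 3 adipocyte markers (Adipoq) were higher, and none of the 3 endothelial, 5 keratinocyte, 5 macrophage, 4 neutrophil, 3 tested T cell, 6 fibroblast, 5 hair follicle matrix, 5 red blood cell and 3 skeletal muscle markers passed. At day 6, when 2 histone genes were higher, 4 of 5 red blood cell markers were lower and no other marker passed. At day 3, when no histone gene passed, all 5 red blood cell markers were lower. Averaged over days, the macrophage markers Cd163 and Cd68, the mast cell markers Cma1 and Mcpt4 and Adipoq were higher and all 5 red blood cell markers were lower. No marker was at 0 in every library.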

How the data were processed

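RNA of mouse skin was sequenced as paired-end Smart-Seq2 libraries, per the labels' protocols. Reads were aligned to mm10 with HISAT2 2.2.1, per the submitters' processing notes. No source used here names the counting tool or annotation. The deposited values are FPKM, which the authors made by scaling fragments to gene length and library. Gene lengths were taken from GENCODE M21, in which 34067 of the genes were found. With them all values of 31471 genes, the 58 histone genes included, were whole fragments within 0.01, which gave the library totals.

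Tests used limma 3.58.1 (limma-trend, R 4.3.3) on log2(FPKM + 1), so changes of low genes are understated. All 17 libraries entered with 1 mean per group, for 15271 genes with at least 1 FPKM in at least 2 libraries. P-values were adjusted over these genes (Benjamini-Hochberg), and an adjusted p under 0.05 passed. The script was tested on simulated data. Sums and shares were computed with Python 3.11.15 and pandas 2.3.3.

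Histone genes named are the 3 with the highest mean in each family, those that passed (up to the 8 largest changes per comparison) and Hist1h1t. From the other lists (replacement histones, histone mRNA synthesis and processing, histone mRNA decay, chaperones, DNA replication, mitosis, cell type markers) up to 4 passing genes per comparison, and Slbp, Npat, Mki67, Pcna, H2afx, H2afz, H3f3b and H1f0, could be named. Genes named for a sequence feature or after their values were seen fall outside this rule. Members and lists were chosen with earlier results of these data known. Alternatives were another pseudocount, no filter, a minimum of 5 FPKM, median-of-ratios and nuclear-total scaling, only the groups compared, a replicate block, limma-voom on recovered fragments and each library left out. Limma-voom with 10 fragments in 2 libraries was added after seeing the data.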

Additional observations from a re-analysis of the deposited data

How the results depend on the processing

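Of 45 called histone values, 13 passed under every alternative and none changed sign. The number of passing histone genes stayed within 1.5 times the reported one in 231 of 286 alternatives. This includes irradiated day 3, the F test and the day 9 minus day 3 effect, where the reported number was 0. There, 0 again was counted as the same, which raises the figure.

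For irradiated against control day 6 (2 genes), 1 passed with a pseudocount of 0.1, a minimum of 5 FPKM, nuclear-total scaling and either limma-voom fit, and 0 with only the groups compared. With a minimum of 5 FPKM, which removed most histone genes from the test, 3 passed at irradiated day 9, 3, 4 and 4 in control days 3, 6 and 9 against day 0, and 1 each between days 3 and 9 of control and of irradiated wounds. With only the groups compared, 4 and 0 passed in control days 3 and 6 against day 0. Between control days 3 and 9 (2 genes), 1 passed with a pseudocount of 0.1, no filter, median-of-ratios scaling or limma-voom with 10 fragments, and between irradiated days 3 and 9, 1 with nuclear-total scaling. Where only 1 call was lost, the cause was not tested. The summed level at day 0 was 215.2 FPKM with median-of-ratios and 215.4 with nuclear-total scaling, and that of control day 6 was 90.3 with nuclear-total scaling.

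Leaving out 1 library at a time, the number passing with irradiation was 0 throughout at day 3, between 0 and 4 at day 6, between 1 and 6 at day 9 and between 3 and 6 averaged over days. It ran from 0 to 1 in the F test, 6 to 10, 6 to 10 and 7 to 11 in control days 3, 6 and 9 against day 0, and 0 to 2 between days 3 and 9 of either arm. A group left with 1 library is assumed to vary like the others.

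Same-numbered control and irradiated libraries of a day deviated with correlations of -0.122 to 0.298 across genes, so the numbers were not taken to pair samples. With a replicate block 1 gene passed in place of 2 at irradiated day 6 and between control days 3 and 9, and elsewhere the number stayed within 1.5 times. Of the 58 genes, 41 were below the minimum of 1 FPKM and together had 153 to 289 fragments per library, which limits what single genes among them can show.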
